A study of Monodelphis domestica with 6 samples.

Results

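The Hedgehog pathway genes were compared between neonatal skin fibroblasts (neoSFs) of an opossum, Monodelphis domestica, and the induced pluripotent stem cells (monoiPSCs) reprogrammed from them. The members were 9 genes listed by symbol, namely the ligands SHH and IHH, the receptor PTCH1, the co-receptor GAS1, the decoy receptor HHIP, the signal transducer SMO and the transcription factors GLI1, GLI2 and GLI3. Of the 9 genes, 7 had a row among the 35665 genes of the files. No row carried the symbol GLI1 or GLI3, so these genes were not analysed here.

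RNA of 6 libraries was sequenced, 2 of neoSFs and 4 of monoiPSCs. The neoSFs were untreated wild-type primary skin fibroblast cultures of 2 inbred strains, FD2M1 and LSD1, with 1 library per strain, grown in Monodelphis fibroblast growth medium with fetal bovine serum. For the monoiPSCs, neoSFs of each strain were nucleofected with OriP/EBNA episomal plasmids that encode human OCT4, SOX2, NANOG, KLF4, LIN28 and cMYC, and colonies were picked and grown without feeder cells on Matrigel in a medium with human LIF, bFGF and a ROCK inhibitor. The FD2M1 and LSD1 monoiPSC lines were each sequenced at passage 15 (P15) and passage 25 (P25). The medium components named in the labels of either cell type include no Hedgehog ligand and no agonist of the pathway. The labels give 1 line name per strain, so line and strain cannot be told apart. The study's text calls the 4 monoiPSC libraries clones, and it is not stated whether P15 and P25 of a strain are the same clone, so the comparison of passages may also be one of clones. The 2 neoSF cultures came from different strains and so from different animals, 1 culture per strain. No strain has a replicate neoSF culture, so p-values measure only the spread between these libraries. Sequencing was single-end and in-house for neoSFs, but paired-end, with longer reads and by a service, for monoiPSCs, so platform, read type and cell type cannot be told apart.

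Hedgehog ligands are secreted proteins that carry a cholesterol and a palmitoyl group, and they pattern the neural tube, limbs, gut and skin of vertebrate embryos. Without ligand, PTCH1 keeps SMO inactive. Ligand bound by PTCH1, with the help of the co-receptors GAS1, CDON and BOC, frees SMO to enter the primary cilium and to activate the GLI factors. PTCH1, HHIP and GLI1 are themselves targets of GLI factors in many tissues, and PTCH1 and HHIP restrain the signal by binding ligand. In skin, SHH from the epithelium acts on dermal cells during hair follicle formation.

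The depth was lower in neoSFs, with total counts of 14278794 and 16982978, than in monoiPSCs, with 28684754 to 35564261. Values are given as normalized read counts (NRCs), which are counts scaled for library depth by the authors. A count of 3, taken as the detection floor, corresponds to an NRC of 5.85 in FD2M1 neoSFs, 4.75 in LSD1 neoSFs and 1.55 to 1.88 in monoiPSCs. This floor is a set level that does not cover the whole counting error, and copies made by PCR are not separate molecules. Of the fibroblast markers, 8 of 9 tested were lower in monoiPSCs, against 21.6% of all genes tested. Of the pluripotency markers, 6 of 6 were higher, against 24.3%. Their summed NRC was 52.03 and 27.3 in FD2M1 and LSD1 neoSFs and 7945 to 11266 in monoiPSCs. With such low neoSF sums, they were tested mainly through the monoiPSC libraries. The study had checked the lines for pluripotency markers, so these counts only describe the samples. The keratinocyte genes with a row were listed at 0 in all 4 monoiPSC libraries and summed to an NRC of 9.76 and 8.18 in neoSFs. The FD2M1 neoSF library stood apart in cartilage markers. The cartilage factor SOX9 had an NRC of 19063 in FD2M1 and 1519 in LSD1 neoSFs, and the cartilage proteoglycan ACAN had 67335 and 1712. Named genes whose call was lost without this library are pointed out beside their values, and the part of cartilage cells in those calls was not tested. In such bulk samples, fewer cells of a type and less RNA per cell cannot be told apart.

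SHH, PTCH1 and HHIP RNA was higher in monoiPSCs than in neoSFs, GAS1 RNA was lower, and SMO and GLI2 did not pass the test. The receptor PTCH1 rose 66.3-fold, HHIP rose 70.8-fold and the co-receptor GAS1 was 11.6-fold lower. SHH was at the detection floor in both neoSF libraries, and its mean in monoiPSCs was 180-fold above that floor of 3 counts. Genes were tested when both neoSF libraries or all 4 monoiPSC libraries reached an NRC of 20, and differentially expressed (DE) genes had an adjusted p of at most 0.05 and at least a 2-fold change. Of the 6 members tested, 3 were higher and 1 was lower in monoiPSCs. Among all 13072 genes tested, 24.3% were higher and 21.6% were lower, so 45.9% were DE in either direction. SHH and HHIP passed the filter through the monoiPSC libraries alone, so their difference is partly set by the filter and the count is a description. The median log2 fold change was 3.17 over the 6 members and 0.08 over all genes tested. The libraries of the 2 groups did not overlap for 4 of the 6 members, and for 73.2% of all genes tested. An unadjusted p under 0.05 was given to 66.4% of all genes tested.

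**Figure D1:**
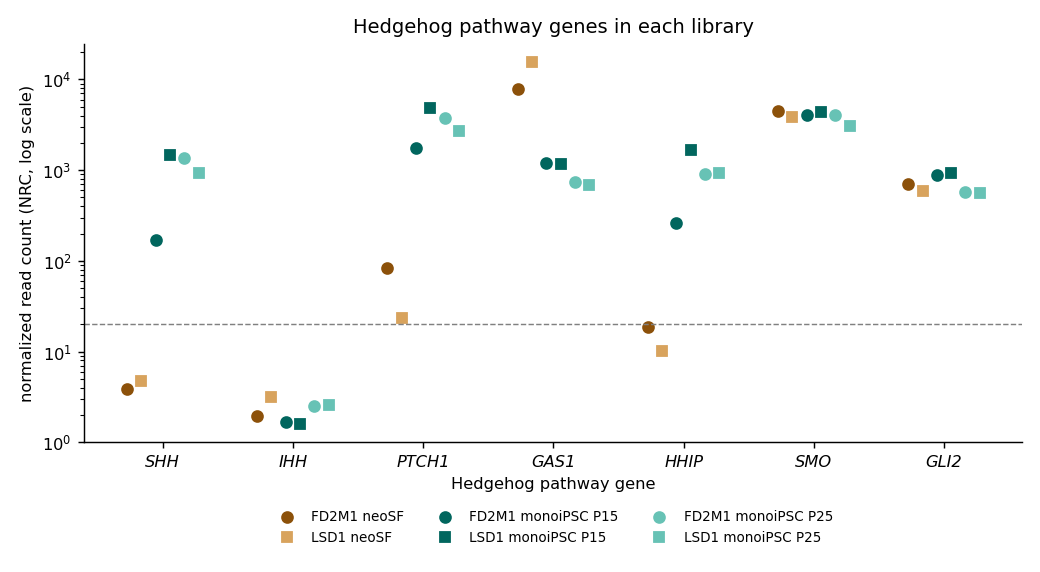
NRC, on a log axis, of the 7 members with a row in each of the 6 libraries. Each point is 1 library (brown for neoSFs, green for monoiPSCs, circles for FD2M1 and squares for LSD1), and the dashed line marks an NRC of 20; SHH, PTCH1 and HHIP sit higher in all 4 monoiPSC libraries than in both neoSF libraries, GAS1 sits lower, and IHH is below 5 in every library.

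SHH, the ligand with the widest range of roles in the embryo, lies on chromosome 8 of the MonDom5 assembly. It had 2 counts in FD2M1 and 3 counts in LSD1 neoSFs, which are NRCs of 3.90 and 4.75. In monoiPSCs the NRC of SHH was 172 in FD2M1 P15, 1470 in LSD1 P15, 1360 in FD2M1 P25 and 935 in LSD1 P25. The groups did not overlap, and FD2M1 P15 stood 5.45-fold below the next lowest monoiPSC library. The lowest monoiPSC library was 31.7-fold above the floor of the neoSFs. The 95% counting intervals of the neoSF counts reached 7.22 in FD2M1 and 8.77 in LSD1. Folds against 3 counts are therefore no lower bounds. The fitted log2 fold change of SHH, which depends on the prior count and is no bound, was 7.88 ± 1.25 (SE) with an adjusted p of 0.00127 in edgeR's quasi-likelihood test (Benjamini-Hochberg). The exact permutation test of log2 NRC gave SHH a two-sided p of 0.0667, as it did PTCH1, HHIP and GAS1, and this is the smallest p that 2 against 4 libraries allow.

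IHH, the ligand known for its role in cartilage growth, lies on chromosome 7. It had 1 and 2 counts in neoSFs and 3 to 5 counts in monoiPSCs. Its NRC was 1.95 in FD2M1 and 3.17 in LSD1 neoSFs, and 1.68, 1.58, 2.51 and 2.58 in FD2M1 P15, LSD1 P15, FD2M1 P25 and LSD1 P25. The groups overlapped, IHH did not pass the filter, and no difference was detectable at this depth.

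PTCH1, the receptor that binds the ligands, lies on chromosome 6. Its NRC was 84.0 in FD2M1 and 23.5 in LSD1 neoSFs. In monoiPSCs the NRC of PTCH1 was 1750 in FD2M1 P15, 4791 in LSD1 P15, 3774 in FD2M1 P25 and 2733 in LSD1 P25. The neoSF values came from 43 and 15 counts, and the lowest monoiPSC library was far above both. Means were 53.7 ± 42.8 (SD, n = 2) for neoSFs and 3262 ± 1312 (SD, n = 4) for monoiPSCs. The log2 fold change of PTCH1 was 6.05 ± 0.68 (SE), with an adjusted p of 0.000277 in edgeR's quasi-likelihood test (Benjamini-Hochberg). Without the FD2M1 neoSF library it was 7.18 and without the LSD1 neoSF library 5.38, and PTCH1 was DE in both fits.

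HHIP, which binds Hedgehog ligands at the cell surface without passing on the signal, lies on chromosome 5. Its NRC was 18.9 in FD2M1 neoSFs, from 10 counts, and 10.0 in LSD1 neoSFs, from 6 counts. In monoiPSCs the NRC of HHIP was 262 in FD2M1 P15, 1673 in LSD1 P15, 910.5 in FD2M1 P25 and 935 in LSD1 P25. All 4 monoiPSC libraries were above both neoSF libraries, and FD2M1 P15 was again the lowest, 3.47-fold below the next. The log2 fold change of HHIP was 6.15 ± 0.93 (SE), with an adjusted p of 0.00106 in edgeR's quasi-likelihood test (Benjamini-Hochberg).

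GAS1, a membrane-anchored co-receptor that binds SHH, lies on chromosome 6 and changed the other way. Its NRC was 7829 in FD2M1 and 15534 in LSD1 neoSFs. In monoiPSCs the NRC of GAS1 was 1189 in FD2M1 P15, 1178 in LSD1 P15, 734 in FD2M1 P25 and 679 in LSD1 P25. The groups did not overlap, and GAS1 stayed far above the detection floor in all 4 monoiPSC libraries. Means were 11682 ± 5449 (SD, n = 2) for neoSFs and 945 ± 277 (SD, n = 4) for monoiPSCs. GAS1 fell by 3.53 ± 0.34 (SE) on the log2 scale, with an adjusted p of 0.00015 in edgeR's quasi-likelihood test (Benjamini-Hochberg).

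SMO, the membrane protein through which the signal passes, lies on chromosome 8. Its NRC was 4434 in FD2M1 and 3842 in LSD1 neoSFs, and 4054, 4358, 4046 and 3068 in FD2M1 P15, LSD1 P15, FD2M1 P25 and LSD1 P25. The groups overlapped, with means of 4138 ± 419 (SD, n = 2) for neoSFs and 3881 ± 562 (SD, n = 4) for monoiPSCs. The log2 fold change of SMO was 0.00 ± 0.18 (SE), with an adjusted p of 0.984 in edgeR's quasi-likelihood test (Benjamini-Hochberg).

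GLI2, a transcription factor that acts mainly as an activator in the pathway, lies on chromosome 4. Its NRC was 697 in FD2M1 and 591 in LSD1 neoSFs, and 879, 931, 573 and 562 in FD2M1 P15, LSD1 P15, FD2M1 P25 and LSD1 P25. The 2 neoSF libraries lay between the P15 and the P25 libraries of the monoiPSCs. The log2 fold change of GLI2 was 0.29 ± 0.27 (SE), with an adjusted p of 0.369 in edgeR's quasi-likelihood test (Benjamini-Hochberg).

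**Figure D2:**
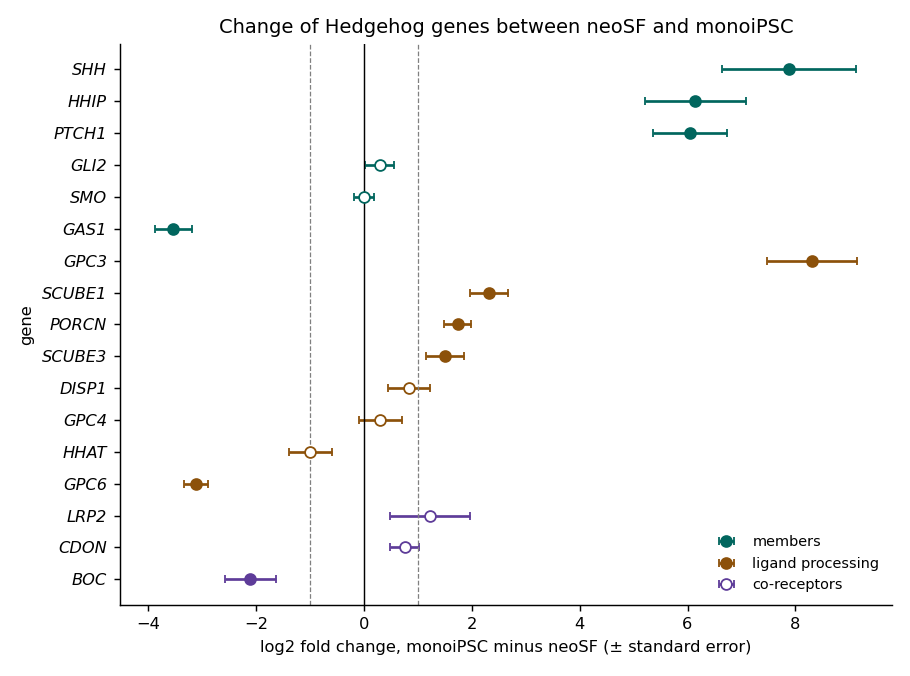
Log2 fold change (monoiPSC minus neoSF) of the 6 tested members, the ligand processing genes and CDON, BOC and LRP2, each with its standard error from edgeR as a bar; filled points are DE, open points are not, dashed lines mark a 2-fold change, and the fitted values of SHH and GPC3 are no bounds because both were at the floor in neoSFs. Among the members, PTCH1 at 6.05, HHIP at 6.15 and SHH at 7.88 lie far above 0, GAS1 at -3.53 lies below, and SMO at 0.00 and GLI2 at 0.29 lie near 0.

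Each monoiPSC library was also set against the neoSF library of its own strain. The log2 change of PTCH1 was 4.38 in FD2M1 P15, 7.67 in LSD1 P15, 5.49 in FD2M1 P25 and 6.86 in LSD1 P25. For HHIP the log2 changes in the same order were 3.80, 7.38, 5.59 and 6.54, and for GAS1 they were -2.72, -3.72, -3.42 and -4.52. Each of these 3 genes therefore changed in 1 direction in 4 of 4 libraries, and the changes of the LSD1 libraries were larger than those of the FD2M1 libraries. Both passages of a strain were set against the same neoSF library, so these changes are not independent. For GAS1 the lines were close at each passage, while the neoSF NRC was 15534 in LSD1 and 7829 in FD2M1. For PTCH1 and HHIP the neoSF baseline was lower in LSD1, from 15 against 43 counts and from 6 against 10 counts. At P15 the NRC of LSD1 and FD2M1 was 4791 and 1750 for PTCH1 and 1673 and 262 for HHIP. At P25 it was 2733 and 3774 for PTCH1 and 935 and 910.5 for HHIP. For SMO the log2 changes were -0.13, 0.18, -0.13 and -0.32, with both signs, and for GLI2 they were 0.33, 0.66, -0.28 and -0.07. Whether the change differed between the strains was tested as an interaction, in which the residual spread came only from the passages of a line. This test called 0.0841% of the 13072 genes and no member, while 9.13% had an unadjusted p under 0.05. The difference between strains in the change was 2.25 ± 0.99 (SE) on the log2 scale for PTCH1, with an adjusted p of 0.598 in edgeR's quasi-likelihood test (Benjamini-Hochberg). For the other members the adjusted p of this test was 0.712 or above.

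The 4 monoiPSC libraries were compared among themselves by passage and by line, over 12252 genes. From P15 to P25, no member and 0% of the genes tested were DE in edgeR's quasi-likelihood test, while 9.35% had an unadjusted p under 0.05. DESeq2 called 88 genes higher and 27 lower at P25. GAS1 was lower at P25 in both lines, with a log2 difference of -0.76 ± 0.17 (SE) and an adjusted p of 0.297 in edgeR's quasi-likelihood test (Benjamini-Hochberg). GLI2 was also lower at P25 in both lines, by -0.69 ± 0.17 (SE) on the log2 scale, with an adjusted p of 0.359 in the same edgeR test. These differences between passages did not pass the threshold. Between the lines, 0% of the genes were DE in edgeR and 14.2% had an unadjusted p under 0.05, while DESeq2 called 120 genes higher and 72 lower in LSD1. For HHIP, LSD1 was well above FD2M1 at P15, with NRCs of 1673 and 262, but the lines were close at P25, with 935 and 910.5. The log2 difference between the lines over both passages was 1.35 ± 0.62 (SE), with an adjusted p of 0.394 in edgeR's quasi-likelihood test (Benjamini-Hochberg). For SHH the difference between the lines was 1.25 ± 0.88 (SE) on the log2 scale, with an adjusted p of 0.555 in the same edgeR test. The direction for SHH was not the same at both passages, since LSD1 was higher at P15, with 1470 against 172, and FD2M1 was higher at P25, with 1360 against 935.

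FD2M1 P15 had the lowest NRC of SHH, PTCH1 and HHIP among the 4 monoiPSC libraries. The highest monoiPSC library exceeded FD2M1 P15 by 8.57-fold for SHH, and FD2M1 P15 was 1.56-fold below the next lowest library for PTCH1. FD2M1 P15 was the lowest of the 4 libraries for 28.6% of the 12252 genes expressed in all of them, and it was at least 2-fold below the next lowest for 0.979%. PTCH1 ranked the 4 libraries in the same order as SHH, which was noticed after the values were seen, and 3.27% of the expressed genes ranked them so. Without FD2M1 P15 the fitted log2 fold change of SHH was 8.23 ± 0.41 (SE) and that of HHIP was 6.46, and both were DE. Markers of other cells differed between these libraries as well. NANOG, a pluripotency factor, had an NRC of 280 in FD2M1 P15, 858 in LSD1 P15, 962 in FD2M1 P25 and 1456 in LSD1 P25. All pluripotency markers together summed to 9106, 9872, 11266 and 7945 in the same order, so LSD1 P25 was lowest in the sum. In the same order SOX1, a gene of early neural cells, had 203, 109, 84.1 and 18.0. The neural progenitor markers together summed to 5418, 6710, 4641 and 10673, so LSD1 P25 was highest in that sum. MYOG, a muscle regulator, had 1527, 4135, 985 and 5549. DCT, a melanocyte enzyme, had 5608, 15279, 4372 and 7858. None of these 4 markers ranked the libraries as SHH did, and their part in the differences between libraries was not tested.

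**Figure D3:**
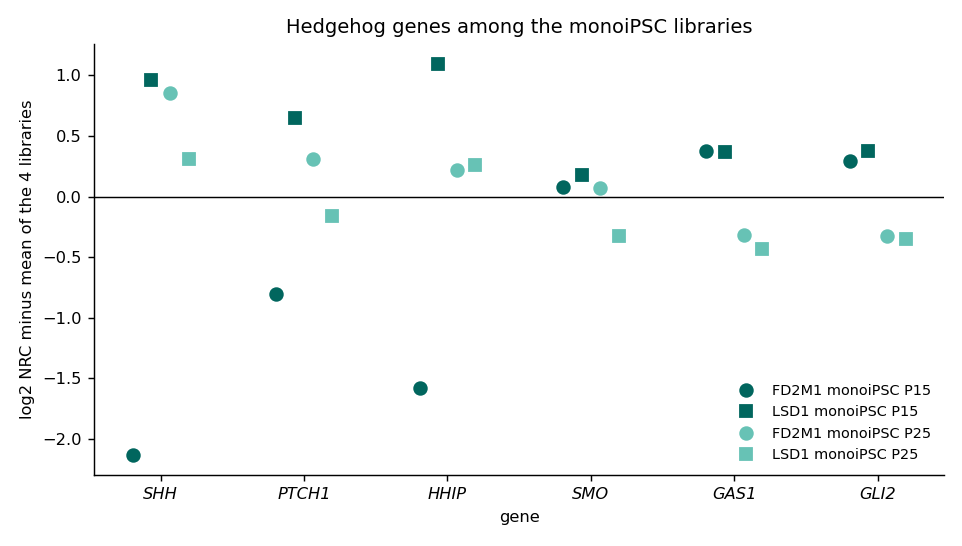
Log2 NRC of each tested member in the 4 monoiPSC libraries, minus the gene's mean log2 NRC over them; each point is 1 library, dark for P15 and light for P25, with circles for FD2M1 and squares for LSD1. FD2M1 P15 is the lowest point for SHH, PTCH1 and HHIP, and both P25 libraries lie below both P15 libraries for GAS1 and GLI2.

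SHH is also known as a marker of the notochord and floor plate, so the other markers of these tissues were read beside it. FOXA2, a transcription factor of the notochord, floor plate and endoderm, had an NRC of 27.3 in FD2M1 and 26.4 in LSD1 neoSFs. In monoiPSCs its NRC was 1118 in FD2M1 P15, 1511 in LSD1 P15, 3719 in FD2M1 P25 and 3820 in LSD1 P25. The 4 notochord and floor plate markers other than SHH summed to 33.2 and 28.0 in neoSFs and to 1136 to 3839 in monoiPSCs, of which FOXA2 made up nearly all. The notochord genes TBXT and NOTO reached at most 8.79 and 2.51 in any library. Of the definitive endoderm markers, SOX17 was at or below 2.51 and GATA4 was listed at 0 in all 6 libraries, while of the 3 tested, FOXA2 and CXCR4 were DE and higher in monoiPSCs and GATA6 was DE and lower. CXCR4, a chemokine receptor also found on many other cells, had 11.7 and 1.58 in neoSFs and 442 to 752 in monoiPSCs. GATA6, a factor of endoderm and mesoderm, had 419 and 1079 in neoSFs and 2.53 to 28.3 in monoiPSCs. CXCR4 passed the filter through the monoiPSC libraries alone and GATA6 through the neoSF libraries alone, so their differences are partly set by the filter. FOXA2 was lowest in FD2M1 P15, as SHH was, but its 2 highest libraries were the P25 libraries. The part of notochord, floor plate or endoderm cells in the SHH level was not tested.

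The wider pathway was read from lists of 156 genes, of which 148 had a row and 138 were tested. In monoiPSCs 28 were higher and 27 were lower, so 39.9% were DE, against 45.9% of all genes tested. The median log2 fold change of the wider lists was 0.04, against 0.08 over all genes tested.

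**Figure D4:**
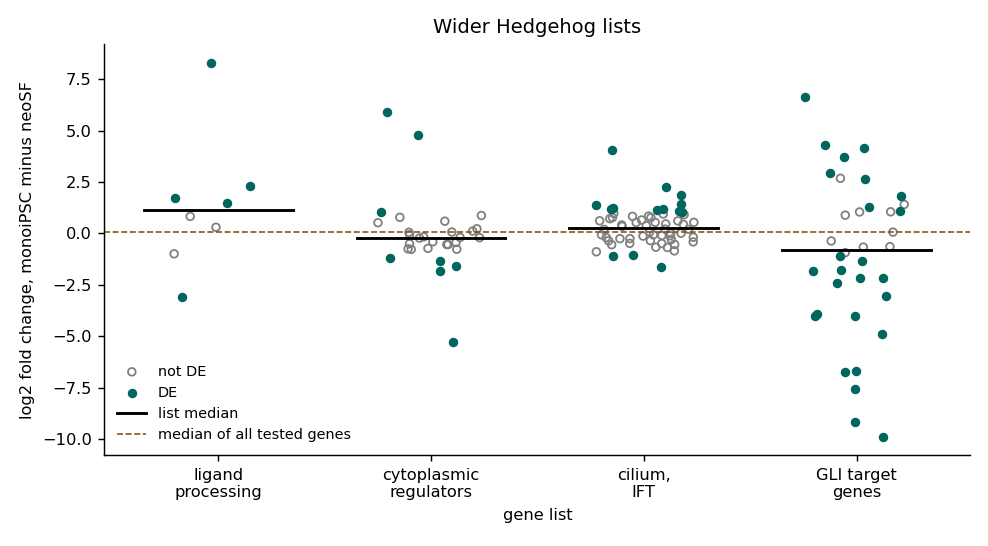
Log2 fold change (monoiPSC minus neoSF) of the tested genes of 4 wider lists, where each point is 1 gene, filled where DE, the black bar is the median of the list and the dashed line is the median of all genes tested, 0.08; the sideways scatter has no meaning. The medians are 1.17 for ligand processing and -0.80 for GLI target genes, and the target genes spread widely in both directions.

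Genes of ligand processing and release make, lipidate, release or bind the ligand outside the cell. Of 8 tested, 4 were higher, 1 was lower and 3 were not DE, and the median log2 fold change was 1.17. Thus 50% were higher and 12.5% lower, against 24.3% and 21.6% of all genes tested. SCUBE1 and SCUBE3 belong to a family of secreted proteins known for releasing lipid-bearing ligand. SCUBE1 had an NRC of 229 and 166 in neoSFs and 665 to 1364 in monoiPSCs, with a log2 fold change of 2.32 ± 0.35 (SE) and an adjusted p of 0.00105 in edgeR's quasi-likelihood test. SCUBE3 had 789 and 335 in neoSFs and 1183 to 1713 in monoiPSCs, and rose 2.83-fold with an adjusted p of 0.00737 in the same edgeR test. GPC3, a glypican known to bind Hedgehog ligands and to limit signalling, was at the floor in neoSFs. Its mean in monoiPSCs, where its NRC was 195 to 453, was 52.7-fold above that floor of 3 counts. GPC3 passed the filter through the monoiPSC libraries alone, so its difference is partly set by the filter. GPC6, another glypican, had 4795 and 5087 in neoSFs and 402 to 732 in monoiPSCs, and fell by 3.11 ± 0.23 (SE) on the log2 scale. The list also holds PORCN, which is known for acylating WNT proteins and rose with a log2 fold change of 1.74 ± 0.25 (SE). HHAT, which attaches the palmitoyl group to the ligand, had a log2 fold change of -0.99, and its adjusted p of 0.0622 in edgeR's quasi-likelihood test missed the threshold. DISP1, the transporter that releases the ligand, had 0.83 on the same scale, with an adjusted p of 0.100 in the same edgeR test. DISP2, DISP3 and SCUBE2 were not tested, and no row carried the symbol DHH, the third Hedgehog ligand of vertebrates.

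The co-receptors CDON and BOC and the receptor LRP2 were read beside GAS1. BOC had 6548 and 1776 in neoSFs and 553 to 1180 in monoiPSCs, and fell by 2.10 ± 0.48 (SE) on the log2 scale. Without the FD2M1 neoSF library, the one high in cartilage markers, BOC was no longer DE, with a log2 fold change of -0.89. CDON, the co-receptor most like BOC, had a log2 fold change of 0.75 ± 0.27 (SE) and an adjusted p of 0.0408 in the edgeR test, under the 2-fold limit. LRP2, an endocytic receptor that binds SHH, had 251 and 188 in neoSFs and 90.5, 487, 525 and 820 in FD2M1 P15, LSD1 P15, FD2M1 P25 and LSD1 P25, and was not DE. Of the co-receptors GAS1, BOC and CDON, the first pair was lower in monoiPSCs and CDON was not DE.

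Cytoplasmic regulators carry the signal between SMO and the GLI factors. Of 30 tested, 3 were higher, 5 were lower and 22 were not DE, and the median log2 fold change was -0.21. Thus 10% were higher and 16.7% lower, against 24.3% and 21.6% of all genes tested. SUFU, which holds GLI factors in the cytoplasm, had 602 and 694 in neoSFs and 325 to 598 in monoiPSCs, with a log2 fold change of -0.44 and an adjusted p of 0.191 in edgeR's quasi-likelihood test. KIF7, a kinesin of the cilium tip, had 2162 and 2436 in neoSFs and 914 to 978 in monoiPSCs, and was DE and lower. EVC, a ciliary protein that acts downstream of SMO, fell by 1.82 ± 0.31 (SE) on the log2 scale. PRKAR1A and PRKACB encode subunits of protein kinase A, which phosphorylates GLI factors. PRKACB passed the filter through the neoSF libraries alone. PRKAR1A fell by 1.57 ± 0.24 (SE) on the log2 scale, and PRKACB, with an NRC of 70.9 or less in every library, fell by 1.34, a call lost without any of 5 of the 6 libraries in turn. EFCAB7, which tethers the EVC proteins in the cilium, rose with a log2 fold change of 1.06, a call lost without the FD2M1 neoSF or the LSD1 P25 library.

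ZIC1 and ZIC2, zinc finger proteins related to the GLI factors and also expressed in early embryos and neural crest, were DE in opposite directions. ZIC1 passed the filter through the neoSF libraries alone and ZIC2 through the monoiPSC libraries alone, so their differences are partly set by the filter. ZIC2 had 524 in FD2M1 and was listed at 0 in LSD1 neoSFs, and it had 5051 to 8537 in monoiPSCs. Its log2 fold change was 4.81 ± 1.41 (SE) with all libraries and 3.79 without the LSD1 neoSF library. Without the FD2M1 neoSF library the only neoSF value of ZIC2 is 0 and the fitted value, 16.38, is no bound. ZIC1 had 2012 in FD2M1 and 111 in LSD1 neoSFs and 3.09 to 71.0 in monoiPSCs. It fell by 5.28 ± 1.32 (SE) on the log2 scale, but its log2 fold change was -2.03 without the FD2M1 neoSF library, where it was no longer DE.

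The primary cilium, in which SMO and the GLI factors meet, was read from genes of the cilium and of intraflagellar transport. Of 60 tested, 11 were higher, 3 were lower and 46 were not DE, and the median log2 fold change was 0.28. Thus 18.3% were higher and 5% lower, against 24.3% and 21.6% of all genes tested. The BBSome subunit BBS1 rose by 2.26 ± 0.31 (SE) on the log2 scale, from 160 and 103 in neoSFs to 416 to 668 in monoiPSCs. FUZ, a ciliogenesis effector, rose by 1.85 ± 0.23 (SE), the transport protein IFT122 by 1.43 ± 0.16 (SE) and BBS7 by 1.41 ± 0.21 (SE). IFT46, a subunit of the anterograde transport complex, fell by 1.62 ± 0.20 (SE), BBS2 fell by 1.11 ± 0.21 (SE) and the kinesin subunit KIF3B fell by 1.07 ± 0.16 (SE). The call of BBS2 was lost without the LSD1 neoSF library. These values are log2 fold changes of edgeR's fit, and subunits of the BBSome moved in both directions.

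Genes known as GLI targets in other tissues are shared with many other programmes. Of 36 tested, 9 were higher, 17 were lower and 10 were not DE, and the median log2 fold change was -0.80. Thus 25% were higher and 47.2% lower, against 24.3% and 21.6% of all genes tested. The lower share rests partly on the FD2M1 neoSF library, the one high in cartilage markers. Without it, most of the lower targets had a log2 fold change nearer 0 or of the other sign. SOX9 went from -2.16 to 0.59, while SFRP2 was among those that moved further from 0, from -7.56 to -8.23. Of the listed targets, 7 also stand in the lists of cell type markers. Among the higher ones, FOXA2 rose by 6.64 ± 0.77 (SE) on the log2 scale. The growth factor FGF10 rose by 4.17 ± 0.58 (SE), from 7.48 and 37.5 in neoSFs to 332 to 511 in monoiPSCs. BCL2, an inhibitor of apoptosis, rose by 3.71 ± 0.46 (SE), from 17.2 and 33.8 to 197 to 403. NKX6-1, a ventral neural tube factor, had 14.6 in FD2M1 and was listed at 0 in LSD1 neoSFs, and it had 53.1 to 224 in monoiPSCs. Among the lower ones were genes that fibroblasts also express. SPP1, the matrix protein osteopontin, fell by 9.89 ± 0.94 (SE), from 27690.3 and 3337 in neoSFs to 5.89 to 25.8 in monoiPSCs. The secreted WNT modulator SFRP2 fell by 7.56 ± 0.54 (SE), and the transcription factor TBX3 fell by 9.18 ± 0.39 (SE). PAX9 fell by 6.74 ± 1.15 (SE), and without the FD2M1 neoSF library its log2 fold change was -4.02. The mean NRC in monoiPSCs was 2.83 for TBX3 and 2.22 for PAX9, close to the floor of 1.55 to 1.88. How far TBX3 and PAX9 fell is therefore uncertain. SPP1, TBX3 and PAX9 passed the filter through the neoSF libraries alone. FGF10, BCL2 and NKX6-1 passed it through the monoiPSC libraries alone. The differences of all of these genes are partly set by the filter.

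The genes whose pattern over the 6 libraries was closest to that of each member were found by the root mean square (rms) difference of log2 NRC, with each gene centred on its own mean. For PTCH1 the 3 closest genes included B3GNT8 with an rms difference of 0.36. For HHIP they included SCN1A with 0.35 and PTCH1 with 0.50. For SHH they were SLC16A11 with 0.58, NKX2-8 with 0.66 and SPINT1 with 0.68, of which SLC16A11 and NKX2-8 were listed at 0 in both neoSF libraries. For GAS1 they were SLC29A3 with 0.17, UNC5B with 0.20 and ARID5B with 0.21. For SMO they were CIRBP with 0.03, ATIC with 0.06 and NAA35 with 0.07, and for GLI2 they included WBSCR22 with 0.10 and UBTF with 0.13. On the TMM-scaled CPM scale, none of the genes named here for SHH or PTCH1 was among the 3 closest of that member. The same held for PTCH1 beside HHIP, SLC29A3 beside GAS1 and NAA35 beside SMO.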

How the data were processed

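RNA of 2 neoSF and 4 monoiPSC libraries was measured. The authors aligned reads to MonDom5 with StrandNGS and counted them on RefSeq genes. The deposited raw counts are estimated counts, since 85.3% of the values above 0 were not whole within 0.001, and they were rounded before testing. A second deposited table holds log2 values normalized by DESeq, and 2 to the power of such a value is the NRC. The submitters' processing notes also name bcl2fastq.

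Genes that reached an NRC of 20 in both neoSF libraries, or else in every one of the 4 monoiPSC libraries, were tested in edgeR 4.0.16 in R 4.3.3 (TMM scaling, glmQLFit and glmQLFTest), with Benjamini-Hochberg adjustment over all genes tested and no block. Standard errors were taken as log2 fold change over the root of F. Passages were compared with line as a covariate, and lines with passage as a covariate. Where no library of a group exceeded 3 counts, the fold was taken against 3 counts in its library with the largest weight. DESeq2 1.42.0, limma 3.58.1, other scalings and filters and leaving out each library were alternatives. The script was tested on simulated data.

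All members, all DE genes of the first 3 wider lists and the 4 largest changes each way of the cilium and target lists (mean NRC in the higher group 100 or more) are named. For each member, the 3 closest genes were found. A few genes that these rules name are not reported here. FOXA2, other markers and genes of the first lists that were not DE are named for their values beside a member. Members and lists were chosen with earlier results of these data known. The RefSeq table of another assembly served only for names, so transcript lengths were not used and levels are not compared between genes. Each monoiPSC line came from the fibroblasts of its own strain, which pairs the libraries by strain. The correlation of the strain differences of neoSFs and monoiPSCs over 13072 genes was 0.0721 at P15 and -0.00569 at P25.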

Additional observations from a re-analysis of the deposited data

How the results depend on the processing

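The counts of members called, 3 higher and 1 lower, were the same under every alternative run. SHH, PTCH1, HHIP and GAS1 kept direction and call in 16 of 16 alternatives, with log2 fold changes of 7.45 to 8.40, 5.38 to 7.18, 5.69 to 6.71 and -3.96 to -2.95 and an adjusted p of at most 0.0124 for SHH. With strain as a replicate block, which pairs each line with its own fibroblasts, the log2 fold changes were 7.90 for SHH, 6.06 for PTCH1, 6.05 for HHIP and -3.48 for GAS1, and no member call changed. SMO, at 0.00 in the reported fit, changed sign to -0.0465 with RLE size factors and with DESeq2, -0.10 with limma, -0.00178 without the filter, -0.0142 with passages summed, -0.13 with P25 libraries only and -0.000447 without rounding. Leaving out 1 library at a time gave SMO -0.0896 to 0.105. GLI2 was -0.0891 with P25 libraries only. With library totals only, the median of all genes moved to 0.61, SMO was 0.53, GLI2 was 0.82 and 52 genes of the wider lists were higher in place of 28, while 4786 of all genes were higher and 1931 lower. Of the closest genes, 8 of 18 were shared with TMM-scaled CPM, so most of those names depend on the scale. The fold of SHH against the floor rests on 2 and 3 counts in neoSFs, and depth limits IHH in all 6 libraries. Some calls of single wider genes were lost in leave-one-out fits, 5 of 14 for the cilium list and 10 of 26 for the target list.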

Other observations

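The monoiPSC libraries ranked for SHH as LSD1 P15, FD2M1 P25, LSD1 P25 and FD2M1 P15, from high to low, and PTCH1 ranked in the same order. This was noticed after the values were seen. Of the 12251 other genes expressed in all 4 libraries, 401, or 3.27%, ranked as SHH did. Among the members and wider list genes expressed in all 4 libraries, 8 of 134, or 5.97%, did so, among them PTCH1, GPC4, IQCE, TMEM231, TCTN1, SCLT1 and NRP1. The 4 libraries are P15 and P25 of 2 strains and no test was made of this order.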
